A study of Arabidopsis thaliana with 6 samples.

Results

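Class III peroxidases are haem enzymes that plants secrete into the cell wall and the vacuole. They use hydrogen peroxide to oxidise phenolic compounds and wall proteins, which cross-links lignin, suberin and extensins and stiffens the wall, and in another reaction cycle they release reactive oxygen species (ROS) that loosen walls or serve in the oxidative burst of defence. In roots they are known for the growth of root hairs, for the lignin of the Casparian strip and the xylem, and for the switch from cell division to elongation. Members of the family were taken as every gene whose description in the expression table reads Peroxidase followed by a number, which gave 70 of 27372 genes. The rule uses names only and no measured value. Another 3 genes described as probable or putative peroxidases (PRX26, PRX48 and PRX61) fall outside it. Members are called PRX with the number of the description here.

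Transcripts were measured by RNA-seq in whole seedlings of *Arabidopsis thaliana*, 3 libraries of the control Col-0 and 3 of *fer-4*. *fer-4* is an insertion mutant line of the receptor-like kinase gene *FER* (*FERONIA*) whose product senses the state of the wall. It is the single mutant line in this series, so what else differs between it and Col-0 cannot be told apart from the loss of *FER*. All seedlings were grown on MS agar for 7 days in long days at a light intensity given as 154, in mmol in the labels and in μmol m–2 s–1 in the study, where it is called moderate light (ML), and were harvested at zeitgeber time 3, that is 3 h after lights on.

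Values are FPKM, which divide the fragments of a gene by its length and by the library's mapped fragments, so levels of different genes can be set side by side per length. Total FPKM ran from 910619 to 1058751 per library. No read counts were used, so the depth is unknown, and a relative depth read from the smallest values was 0.953 to 1.09 for the Col-0 libraries and 0.871 to 1.014 for those of *fer-4*, where Col-0 replicate 1 is 1. The median SD of a gene between replicates was 0.0915 on the log2 scale in Col-0 and 0.185 in *fer-4*. *FER* was at 56.5, 62.6 and 64.6 FPKM in Col-0 against 0.0905, 0.0270 and 0.0438 FPKM in *fer-4*, as the labels say. Shoot and root markers were both present, as whole seedlings require. The 6 mesophyll markers summed to 42264 to 45196 FPKM in Col-0 against 30065 to 36771 FPKM in *fer-4*. By the test given below 2 of them fell, beside 16.0% of all genes tested.

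The family held 3398, 3395 and 3464 FPKM in the Col-0 libraries and 4186, 3765 and 4206 FPKM in the *fer-4* libraries. Its mean was therefore 3419 ± 39.0 FPKM in Col-0 against 4052 ± 249 FPKM in *fer-4* (SD, n = 3), or 0.349% ± 0.00380 and 0.416% ± 0.0226 of all FPKM. The groups did not overlap, and every *fer-4* library was above every Col-0 library. A few members carried most of it. The 4 most abundant members held 50.1% of the family's FPKM in Col-0 against 50.5% in *fer-4*, although they were not the same genes, and 6 members were among the 8 most abundant in both genotypes. In Col-0 the order was PRX42 (641 FPKM), PRX32 (514 FPKM), PRX69 (282 FPKM) and PRX71 (275.5 FPKM). In *fer-4* it was PRX71 (671 FPKM), PRX42 (480.1 FPKM), PRX32 (466 FPKM) and PRX34 (431 FPKM). Within the *fer-4* order, PRX42 overlapped with PRX71 and was above it in replicate 1, PRX42, PRX32 and PRX34 overlapped between libraries, and in Col-0 PRX69 and PRX71 overlapped.

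**Figure D1:**
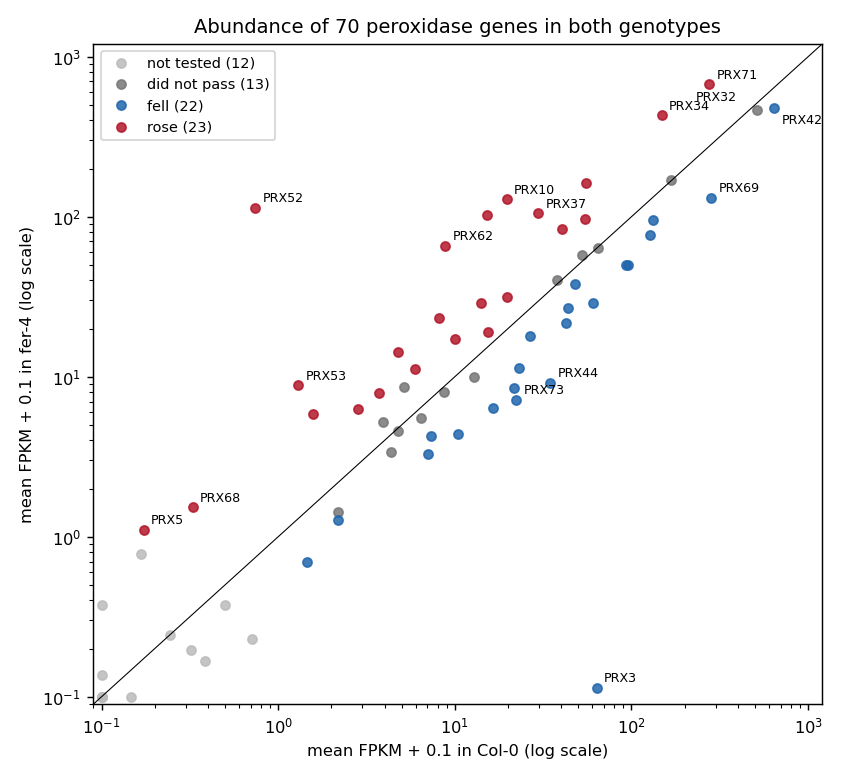
Mean FPKM of the 70 peroxidase genes in *fer-4* (vertical axis) against Col-0 (horizontal axis), both with 0.1 FPKM added and on log scales, where each point is 1 gene and the line marks equal levels. PRX52 stands far above the line (0.641 and 114 FPKM) and PRX3 far below it (63.5 and 0.0139 FPKM), while PRX32 and PRX42 lie near it at the top.

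To ask which members differ between the genotypes, log2(FPKM + 0.1) was compared with limma across the 19839 genes that averaged 0.5 FPKM or more, and p-values were adjusted over this whole set (Benjamini-Hochberg). A gene rose or fell at an adjusted p under 0.05, and a differentially expressed gene (DEG) also had to reach 2-fold and an adjusted p no larger than 0.01. Of the 58 members tested, 23 rose and 22 fell in *fer-4*, or 39.7% and 37.9%. Of all genes tested, 18.0% rose and 16.0% fell. The family thus held a larger share of called genes than the table as a whole in both directions. As DEGs, 17 members were higher, 29.3% against 6.36% of all genes, and 10 were lower, 17.2% against 2.53%. Without *fer-4* replicate 3, 5 members were lower DEGs, since PRX7, PRX24, PRX56, PRX57 and PRX69 then differed by less than 2-fold, while all 5 still fell. In 23 members every *fer-4* library was above every Col-0 library and in 23 every one was below, against 26.1% and 25.1% of all genes. The median log2 fold change of the members was -0.05 and that of all genes -0.01, so the family moved apart and not to 1 side.

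The 3 genes at the bottom were listed at 0 in all 6 libraries (PRX6, PRX36 and PRX41), and 9 more were under the limit, with means of at most 0.374 FPKM. PRX36, which acts in the seed coat when mucilage is released, is among those at 0. PRX5 and PRX68 passed the limit through *fer-4* and PRX3 through Col-0, so those members had to differ. The members that rose summed to 733 ± 26.3 FPKM in Col-0 against 2136 ± 399 FPKM in *fer-4*, and those that fell to 1800 ± 17.8 and 1072 ± 187 FPKM (SD, n = 3). These sums follow from how the groups were chosen and describe only how much transcript each holds. The calls of PRX8, PRX17, PRX42, PRX45, PRX65 and PRX66 were lost when single libraries were left out, and PRX5 fell under the limit and was not tested without *fer-4* replicate 1 or 3. That of PRX17 held only without *fer-4* replicate 3, that of PRX45 only without *fer-4* replicate 2 and that of PRX42 only without *fer-4* replicate 1. PRX66 was lost without any 1 Col-0 library or *fer-4* replicate 3, PRX8 without replicate 2 or 3 of either genotype, and PRX65 without Col-0 replicate 2 or 3 or *fer-4* replicate 1 or 3.

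**Figure D2:**
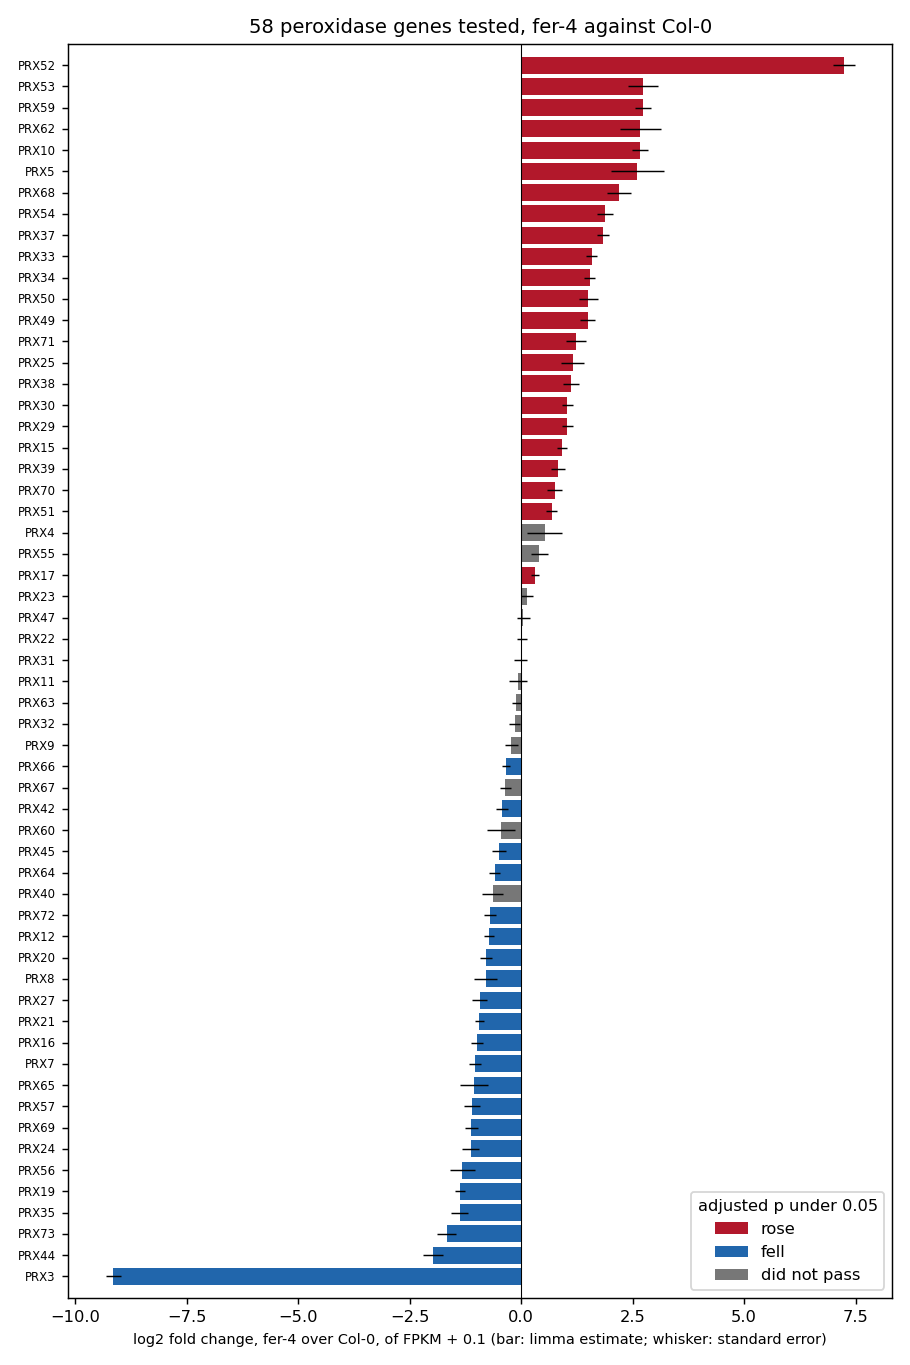
Log2 fold change, *fer-4* relative to Col-0 (horizontal axis, on FPKM + 0.1) for the 58 peroxidase genes tested, 1 bar per gene with its standard error, coloured by call at an adjusted p under 0.05. Bars run from -9.15 for PRX3 to 7.24 for PRX52, with 23 genes that rose, 22 that fell and 13 that did not pass.

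PRX52, an enzyme of lignin formation in the stem, had the largest increase of the family. It was at 0.754, 0.454 and 0.716 FPKM in Col-0 against 109, 79.6 and 152 FPKM in *fer-4*. PRX52 thus went from near the lower limit in Col-0 to rank 9 of the 70 members in *fer-4*, from rank 56. Its log2 fold change was 7.24 (standard error 0.25, adjusted p = 5.4e-07 from limma) and 6.08 with a pseudocount of 1 FPKM. It occupies 1578951 to 1580875 of chromosome 5 (TAIR10, minus strand).

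PRX10 and PRX59 rose at a higher starting level. PRX10 (chromosome 1, 18347036 to 18348951) was at 20.6, 19.9 and 18.2 FPKM in Col-0 against 174, 113 and 99.0 FPKM in *fer-4*, or a log2 change of 2.67 (standard error 0.19, adjusted p = 2.8e-05, limma). PRX59 (chromosome 5, 6724115 to 6725923) was at 17.4, 13.6 and 14.3 FPKM and at 129, 101 and 76.9 FPKM, or a log2 change of 2.73 (standard error 0.18, adjusted p = 2.1e-05, limma). In both genes the lowest *fer-4* library was several times above the highest Col-0 library. The neighbour of PRX59, PRX58, was at 0 in all Col-0 libraries, against 0.384, 0.193 and 0.255 FPKM in *fer-4*, and was not tested.

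For defence and elicitor responses, 6 members had been listed, with earlier results known, and 4 of them rose, 1 fell and 1 did not pass. The shares called among all genes (18.0% rose, 16.0% fell) and in the family (39.7% and 37.9%) stand beside this, PRX5 passed the limit through *fer-4*, and nothing particular to so short a list is read from it. PRX33 and PRX34 are the peroxidases known for the oxidative burst in the apoplast. PRX34 (chromosome 3, 18207651 to 18210132) was at 149, 159 and 136 FPKM in Col-0 against 423, 376 and 492 FPKM in *fer-4*, with no overlap, and its log2 fold change was 1.54 (standard error 0.12, adjusted p = 4.9e-05, limma). PRX33 was at 4.15, 4.37 and 5.50 FPKM and at 14.4, 13.7 and 14.3 FPKM, a log2 fold change of 1.59. The values of these close relatives thus rose by a like factor from Col-0 means of 148 and 4.67 FPKM. Of the stretches of 50 coding bases in PRX33 and PRX34, 9.74% and 9.77% occur in another member. How far the low PRX33 values hold reads of PRX34 was not tested. PRX71, which is induced by damage to the wall and limits growth, was at 287, 252 and 288 FPKM in Col-0 against 521, 527 and 966 FPKM in *fer-4* (log2 fold change 1.22, standard error 0.23, adjusted p = 0.0045, limma). *fer-4* replicate 3 was the highest there by far, and the log2 fold change was 0.93 without it. PRX5 also rose, from 0.179, 0.0409 and 0 FPKM to 0.951, 0.371 and 1.69 FPKM, with a log2 fold change of 2.61 and of 0.85 with a pseudocount of 1. Its neighbour PRX4 was at 5.06, 5.46 and 4.68 FPKM in Col-0 against 5.35, 4.73 and 15.6 FPKM in *fer-4*, and its log2 fold change of 0.53 (adjusted p = 0.33, limma) rested on *fer-4* replicate 3, without which it was -0.01. PRX21, a peroxidase of the response to pathogens and nematodes, fell, from 92.7, 95.2 and 97.8 FPKM to 58.1, 47.5 and 44.5 FPKM (log2 fold change -0.94, adjusted p = 0.00042, limma).

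Other members that rose by 2-fold or more included PRX53 (2.73, and 2.09 with a pseudocount of 1), known from wounded tissue and nematode feeding sites, PRX68 (2.197, and 0.97 with a pseudocount of 1), PRX54 (1.89), PRX37 (1.83), PRX50 (1.51), PRX49 (1.49), PRX38 (1.11), PRX30 (1.03) and PRX29 (1.03), all as log2 fold changes. PRX37, whose overexpression dwarfs plants, was at 31.6, 23.8 and 33.2 FPKM in Col-0 against 118, 99.5 and 97.1 FPKM in *fer-4*. PRX50 was at 56.0, 55.2 and 53.8 FPKM and at 140, 121 and 226 FPKM. In each of these, the *fer-4* libraries lay above all Col-0 libraries. PRX15, PRX39, PRX51, PRX70 and PRX17 rose by less than 2-fold, with log2 fold changes from 0.31 to 0.92.

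**Figure D3:**
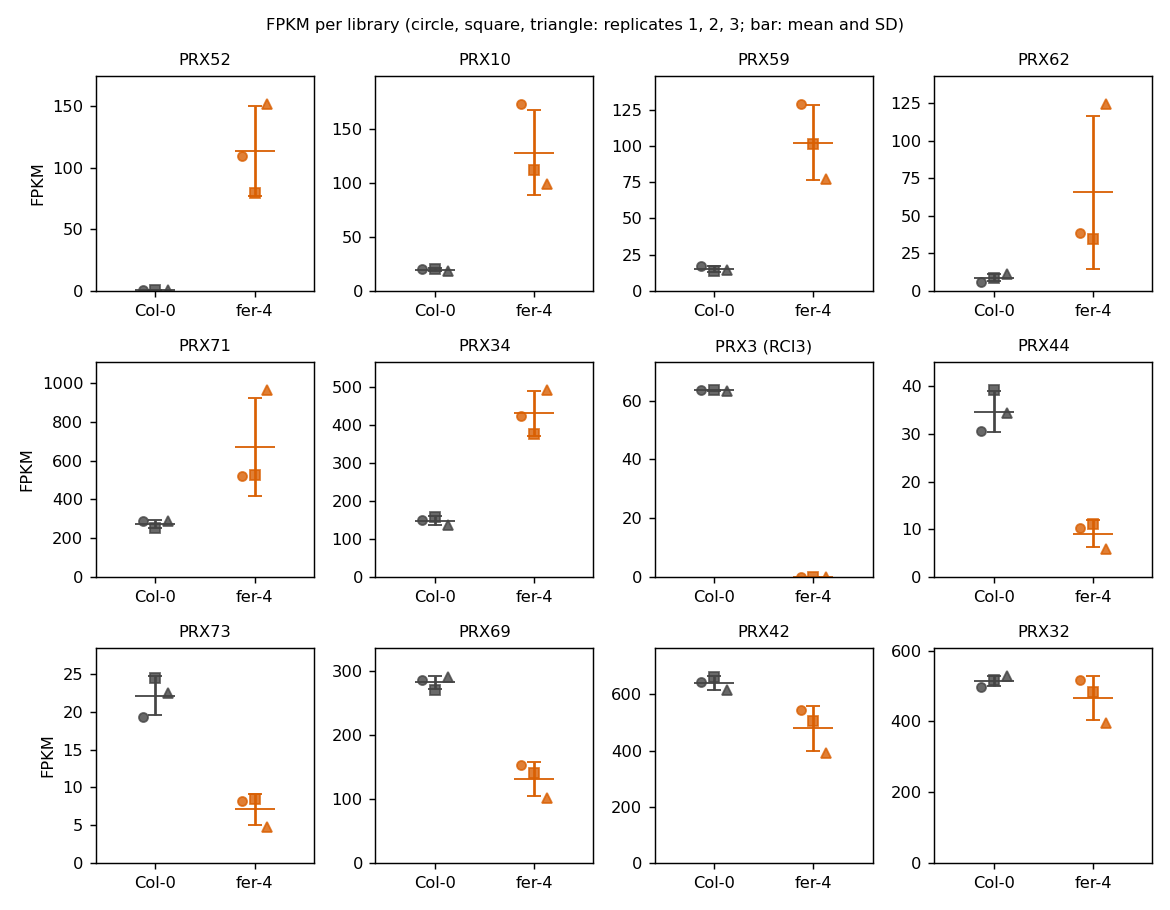
FPKM (vertical axes, each from 0) of 12 peroxidase genes in each library, with replicates 1, 2 and 3 as circle, square and triangle and the mean and SD as bars, Col-0 in grey and *fer-4* in orange. The genotypes do not overlap in any panel but that of PRX32 (498 to 528 FPKM in Col-0, 397 to 517 FPKM in *fer-4*). Among the *fer-4* libraries, replicate 3 is the highest in PRX52, PRX62 (124 FPKM), PRX71 (966 FPKM), PRX34 and PRX3. It is the lowest in PRX10 and PRX59, which rose, and in PRX44, PRX73, PRX69, PRX42 and PRX32.

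PRX44 and PRX73, peroxidases of root hair growth, were among the largest decreases, but not every root hair member fell. PRX60 (*RHS18*), which is not on the list for root hair growth, did not pass (log2 fold change -0.46, adjusted p = 0.29, limma), and PRX62 rose. PRX44 and PRX73 are secreted peroxidases that promote the tip growth of root hairs together with extensins. PRX44 (chromosome 4, 13200593 to 13201941) was at 30.5, 39.2 and 34.3 FPKM in Col-0 against 10.2, 11.1 and 5.87 FPKM in *fer-4* (log2 fold change -1.97, standard error 0.23, adjusted p = 0.00039, limma). PRX73 (*RHS19*, chromosome 5, 26894856 to 26896488) was at 19.4, 24.5 and 22.6 FPKM and at 8.15, 8.42 and 4.74 FPKM (-1.67, standard error 0.21, adjusted p = 0.00072, limma). In neither gene did the genotypes overlap. PRX35, whose coding sequence is 78.8% identical to that of PRX73, went from 19.7, 21.9 and 22.9 FPKM to 11.3, 7.51 and 6.49 FPKM (-1.38).

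PRX62 and PRX69 act together in root hairs that elongate in the cold, and here they moved in opposite directions. PRX69 (chromosome 5, 25650641 to 25652123) fell from 285, 270 and 290 FPKM to 152, 140 and 102 FPKM (log2 fold change -1.12, standard error 0.15, adjusted p = 0.00081, limma). PRX62 (chromosome 5, 15847078 to 15849108) rose from 6.23, 8.83 and 11.2 FPKM to 38.4, 34.4 and 124 FPKM (2.67, standard error 0.46, adjusted p = 0.0029, limma). *fer-4* replicate 3 lay far above the other *fer-4* libraries for PRX62, and without it the log2 fold change was 2.08. Of the 5 members listed for root hair growth, 3 fell, 1 rose and PRX1 was not tested, beside 16.0% that fell and 18.0% that rose among all genes and 37.9% and 39.7% in the family, and the count is given as a description.

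Of 7 root hair markers, none of them a peroxidase, 5 fell and none rose, where 16.0% and 18.0% of all genes tested did. Their summed level was 55.4 to 64.4 FPKM in Col-0 against 27.1, 27.5 and 18.7 FPKM in *fer-4*. The markers that fell were *MRH4* (-0.79), the expansin of root hairs (AT1G12560, -1.34), *RSL2* (-1.34), *LRX1* (-1.56) and *PRP3* (-1.72). Of the hair regulators listed, *RSL2* thus fell, while *RHD6* (-0.08) and *RSL4* (-0.12) did not pass. In bulk seedlings, fewer root hairs and less RNA per root hair cannot be told apart, and the part of root hair number in the decrease of PRX44 and PRX73 was not tested.

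A list of 13 members covers lignin and the Casparian strip, the lignin ring that seals the root endodermis. Of 12 tested, 5 rose, 4 fell and 3 did not pass, and of the 4 PRX3 passed the limit through Col-0. In the family 39.7% rose and 37.9% fell, and among all genes 18.0% and 16.0% did so. Those that rose were PRX52, PRX71, PRX25 (1.16), PRX39 (0.83) and PRX17 (0.31). PRX39, also a direct target of the root growth regulator UPB1, was at 55.7, 46.6 and 60.8 FPKM in Col-0 against 109, 106 and 76.9 FPKM in *fer-4* (standard error 0.15, adjusted p = 0.0046, limma). PRX64, which is held at the site of the Casparian strip, was at 27.4, 25.2 and 27.3 FPKM and at 19.6, 19.2 and 14.5 FPKM (-0.60, adjusted p = 0.0081, limma). PRX72, a peroxidase of lignin formation, was at 42.0, 44.5 and 43.4 FPKM and at 31.2, 27.3 and 22.2 FPKM (-0.70, adjusted p = 0.0036, limma). PRX66 (-0.35) also fell. PRX9, PRX47 and PRX4 did not pass. Of the 5 peroxidases known to lignify the Casparian strip together (PRX3, PRX9, PRX39, PRX64 and PRX72), 3 fell, PRX39 rose and PRX9 (-0.22, adjusted p = 0.28, limma) did not pass. PRX3 is 1 of the 3, and AT1G05270 and AT1G05280 beside it were near 0 in *fer-4* too, as described below. The others are PRX64 and PRX72.

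Of 10 markers of the endodermis and the Casparian strip, 7 fell and none rose, and they summed to 200.3 to 210.3 FPKM in Col-0 against 147, 143 and 106 FPKM in *fer-4*. The regulators *MYB36* (-0.21) and *SCR* (-0.08) were among the 3 that did not pass. Of 9 xylem markers, 3 fell, with sums of 149.8 to 172 FPKM in Col-0 against 118 to 122 FPKM in *fer-4*, and none of 3 root cap markers passed. The share to read these counts against is the 16.0% of all genes tested that fell. The part of tissue proportions in these peroxidase changes was not tested.

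UPB1 is a transcription factor that represses peroxidase genes where root cells begin to elongate. Its own level was 22.6, 23.3 and 21.9 FPKM in Col-0 against 25.0, 23.0 and 25.7 FPKM in *fer-4* (log2 fold change 0.12), which did not pass. Of its 3 listed targets, PRX39 rose, PRX57 fell and PRX40 did not pass. PRX57 (chromosome 5, 5887906 to 5890193) was at 59.0, 58.0 and 64.5 FPKM in Col-0 against 33.5, 32.1 and 20.6 FPKM in *fer-4* (-1.10, standard error 0.18, adjusted p = 0.0021, limma). PRX40, which with PRX9 cross-links extensin in the tapetum, was at 1.97, 2.25 and 1.99 FPKM and at 1.48, 1.64 and 0.890 FPKM (-0.63, adjusted p = 0.072, limma), and it passed without *fer-4* replicate 2 and under quantile normalization. Of 5 markers of floral organs and the tapetum, 4 were under 0.5 FPKM and *PI* (0.49) did not pass. PRX16, known from germinating seeds, fell from 42.6, 42.0 and 42.9 FPKM to 23.3, 24.5 and 16.9 FPKM (-0.99). Of 6 seed storage and oil body markers, 3 were tested and 2 rose (*SESA1* and *SESA2*), both of which passed the limit through *fer-4* and so had to differ, and the list summed to 0.555 to 1.00 FPKM in Col-0 against 8.29 to 15.8 FPKM in *fer-4*.

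The further decreases were in PRX19 (-1.37), PRX56 (-1.32), PRX24 (-1.13), PRX65 (-1.06), PRX7 (-1.04), PRX27 (-0.93), PRX8 (-0.80), PRX20 (-0.78), PRX12 (-0.73) and PRX45 (-0.49), as log2 fold changes. The *fer-4* libraries of PRX19 lay close together, with 14.9, 15.9 and 18.5 FPKM in Col-0 against 6.42, 6.16 and 6.20 FPKM in *fer-4*. Among the abundant members, PRX42 was at 646, 663 and 614 FPKM and at 545, 506 and 390 FPKM (-0.43, standard error 0.14, adjusted p = 0.044, limma), with no overlap between the genotypes. PRX32 was at 498, 516 and 528 FPKM and at 517, 484 and 397 FPKM (-0.15, adjusted p = 0.37, limma), where the libraries overlap. PRX22, at 163, 157 and 180 FPKM and at 192, 165 and 150 FPKM, had a log2 fold change of 0.02 and overlapped too.

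PRX3 (*RCI3*), a Casparian strip peroxidase first described as induced by cold, had the largest fitted decrease of all genes tested. It was at 63.5, 63.7 and 63.4 FPKM in Col-0 against 0, 0 and 0.0417 FPKM in *fer-4*. Its fitted log2 fold change was -9.15 (standard error 0.17, adjusted p = 3.9e-08, limma), and -5.99 with a pseudocount of 1 FPKM, so its size rests on the pseudocount. It occupies 1529767 to 1531439 of chromosome 1. The next gene, AT1G05270, was at 24.9, 25.8 and 24.7 FPKM in Col-0 against 0, 0.0359 and 0 FPKM in *fer-4*. The gene after it, AT1G05280, was at 1.29, 1.56 and 0.804 FPKM in Col-0, whereas each *fer-4* library lists it at 0. Beyond these, 2 genes were at 0 in both genotypes and *ZIP5*, a zinc transporter gene, was at 4.21 to 4.55 FPKM in Col-0 against 5.32 to 9.96 FPKM in *fer-4*. On the other side of PRX3, PRX1 and PRX2 (AT1G05240 and AT1G05250) were under 0.4 FPKM in both genotypes, and *HDG2* was at 5.83 to 6.45 and 4.60 to 6.31 FPKM. Genes near 0 in *fer-4* but not in Col-0 thus stood side by side on the chromosome, and for PRX3 the loss of *FER* and a change at this place in the *fer-4* line cannot be told apart.

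**Figure D4:**
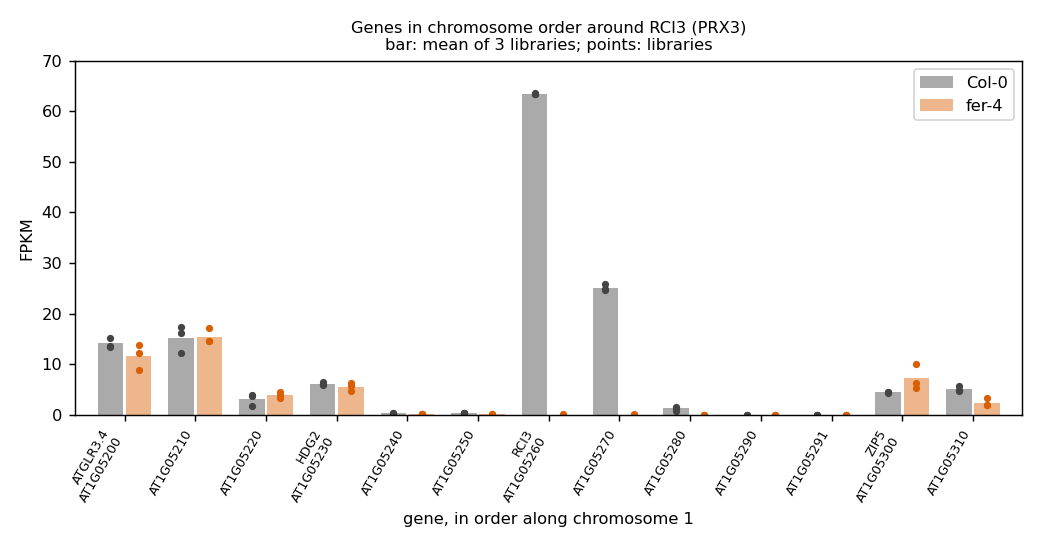
FPKM (vertical axis) of the 13 genes around PRX3 (*RCI3*) in their order along chromosome 1 (horizontal axis), with bars for the mean of 3 libraries and points for the libraries, Col-0 in grey and *fer-4* in orange. PRX3 and AT1G05270 reach 63.5 and 25.1 FPKM in Col-0 but stay near 0 in *fer-4*, while the flanking *HDG2* and *ZIP5* are present in both.

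Many peroxidase genes lie next to a relative, and 13 chromosome neighbours or near neighbours were compared by the reference coding sequences. In PRX33 and PRX34 (90.7% identical), PRX37 and PRX38 (93.8%), PRX50 and PRX51 (92.4%) and PRX53 and PRX54 (86.3%), both genes rose. PRX22 and PRX23 (90.6%) both did not pass. PRX68 rose from 0.232, 0.251 and 0.204 FPKM to 1.20, 1.85 and 1.24 FPKM, while PRX67 (72.3%) was at 12.7, 10.97 and 14.5 FPKM and at 10.7, 9.69 and 9.25 FPKM (-0.36, adjusted p = 0.057, limma) and passed under quantile normalization and in the fits that lacked Col-0 replicate 2 and *fer-4* replicate 1 respectively. PRX69, PRX70 and PRX71 lie in a row on chromosome 5, and PRX69 fell while PRX70, from 10.2, 9.26 and 10.4 to 21.9, 13.2 and 16.4 FPKM, and PRX71 rose. PRX69 is 69.8% identical to PRX70 and 62.9% to PRX71. Where the sequences are close, reads can be shared between copies, and 12 members hold a stretch of 50 coding bases that is found in another member. For PRX1 and PRX2 the coding sequences are 100% identical, so their low values are uncertain. The file gives them the same description, and RefSeq gives AT1G05250 the name PRX2.

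The start of the coding sequences of PRX33 and PRX34 is printed to show how far reads can tell apart 2 members that both rose. The stretches are the first 60 aligned coding bases without a gap, from coding base 24 of PRX33 (chr3:18200736-18200795, plus strand) and 21 of PRX34 (chr3:18207839-18207898, plus strand), in exon 1 of the TAIR10 genome from RefSeq. Capitals mark the 10 bases that differ.
PRX33: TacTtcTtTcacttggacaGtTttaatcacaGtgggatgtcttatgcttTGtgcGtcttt
PRX34: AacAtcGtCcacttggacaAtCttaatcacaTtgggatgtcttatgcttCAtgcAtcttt
Both genes hold stretches of 50 identical bases elsewhere, and a read that lies wholly inside such a stretch cannot be told apart by its sequence. The read length was not used here.

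Upstream sequences were searched for short motifs in the 250 bases before each gene start of the RefSeq annotation, on both strands, in TAIR10. These starts can differ from the gene coordinates of the expression data, as they do in PRX20, PRX27 and PRX60. The root hair element (RHE), a bipartite motif bound by the RSL factors of hair growth, was found in 3 of 70 members (4.29%) and in 0.754% of 27443 protein-coding genes. The 3 are PRX20 and PRX27, which both fell, and PRX60 (3.76, 4.58 and 4.48 FPKM in Col-0 against 4.32, 3.85 and 1.73 FPKM in *fer-4*), which did not pass (-0.46, adjusted p = 0.29, limma). PRX44, PRX73 and PRX35 had no match in this window. The W-box core TTGAC, bound by WRKY factors, was in 44.3% of members and 44.9% of all genes, in 47.8% of the members that rose and in 40.9% of those that fell. The AC element ACCNAC of lignin genes was in 24.3% of members and 23.6% of all genes. The G-box CACGTG was in 1 of 70 members (1.43%, PRX65) and in 6.49% of all genes. A match is a string of letters and not a shown binding site.

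The 3 upstream stretches with an RHE and that of PRX52, the member with the largest increase, are printed 5′ to 3′ on the strand of the gene, with the RHE or, in PRX52, the single TTGAC in capitals. They are chr2:14892245-14892494 on the plus strand (PRX20), chr3:68666-68915 on the minus strand (PRX27), chr5:7426060-7426309 on the plus strand (PRX60) and chr5:1580876-1581125 on the minus strand (PRX52).
PRX20: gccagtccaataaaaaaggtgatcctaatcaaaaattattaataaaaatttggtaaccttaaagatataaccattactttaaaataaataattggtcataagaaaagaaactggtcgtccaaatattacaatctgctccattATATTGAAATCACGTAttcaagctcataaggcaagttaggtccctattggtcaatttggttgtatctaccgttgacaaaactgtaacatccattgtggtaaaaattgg
PRX27: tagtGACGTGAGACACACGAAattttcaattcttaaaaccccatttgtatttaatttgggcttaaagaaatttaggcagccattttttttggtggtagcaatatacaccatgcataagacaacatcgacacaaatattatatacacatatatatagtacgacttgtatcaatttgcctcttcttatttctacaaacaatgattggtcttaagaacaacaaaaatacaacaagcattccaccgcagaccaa
PRX60: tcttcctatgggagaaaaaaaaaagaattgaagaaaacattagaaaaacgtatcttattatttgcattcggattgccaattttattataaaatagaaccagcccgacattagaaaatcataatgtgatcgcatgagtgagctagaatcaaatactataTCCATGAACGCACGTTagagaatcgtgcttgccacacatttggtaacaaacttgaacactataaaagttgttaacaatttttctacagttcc
PRX52: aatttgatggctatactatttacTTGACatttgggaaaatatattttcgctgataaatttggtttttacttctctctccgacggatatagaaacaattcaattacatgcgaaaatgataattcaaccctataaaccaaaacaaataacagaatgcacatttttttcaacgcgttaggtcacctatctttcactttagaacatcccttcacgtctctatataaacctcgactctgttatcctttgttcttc
The RHE begins 108 bases before the RefSeq gene start in PRX20, 246 in PRX27, where it reads on the other strand, and 92 in PRX60. PRX20 was at 6.45, 7.96 and 7.16 FPKM in Col-0 against 4.60, 3.54 and 4.28 FPKM in *fer-4*, and PRX27 at 90.9, 87.6 and 101 FPKM and at 59.1, 53.5 and 36.9 FPKM.

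In gene structure, 46 of the 70 members have 4 coding exons, 15 have 3, 5 have 1, 3 have 2 and PRX21 has 5. Coding sequences run from 933 to 1119 bases with a median of 990.0. The members lie on all chromosomes, with 13, 12, 10, 14 and 21 genes on chromosomes 1 to 5.

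The *fer-4* libraries differed from each other in the peroxidases more than the Col-0 libraries did. Among the 22 members that fell, the median coefficient of variation was 5.24% in Col-0 and 21.6% in *fer-4*, and among the 23 that rose it was 11.7% and 21.8%. *fer-4* replicate 3 was the lowest *fer-4* library in 19 of the 22 members that fell, or 86.4%, and this was so in 43.7% of all genes that fell. Its level was a median 0.702 times the mean of *fer-4* replicates 1 and 2. Among the members that rose it was the highest in 10 of 23, or 43.5%, against 46.0% of all genes that rose. Over the 58 members tested it was the lowest in 34 (58.6%) and the highest in 15 (25.9%), where the shares of all genes tested are 27.4% and 30.6%. It was also the lowest *fer-4* library in the summed root hair, endodermis, root cap and mesophyll markers (mesophyll: 36771, 31362 and 30065 FPKM in replicates 1, 2 and 3). In the summed xylem markers (118, 118 and 122 FPKM) and in the seed and floral lists it was the highest. The part of these shifts in the peroxidase values was not tested.

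**Figure D5:**
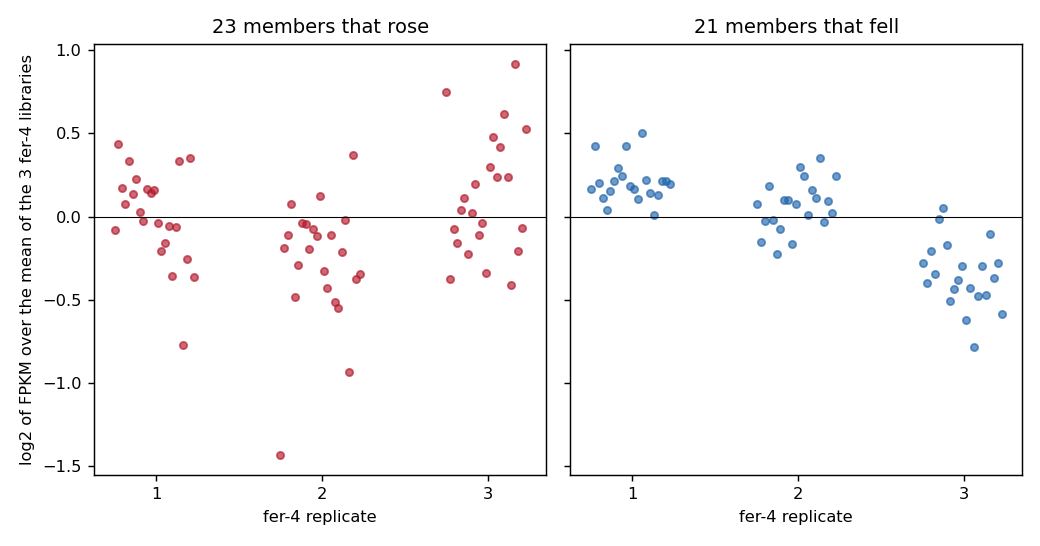
Log2 of FPKM over the mean of the 3 *fer-4* libraries (vertical axis) in each *fer-4* replicate (horizontal axis, points spread sideways for sight), 1 point per gene, for the 23 peroxidase genes that rose and 21 of the 22 that fell (PRX3 at 0 is left out). Points of replicate 3 lie below 0 in nearly all genes that fell and on either side of 0 in those that rose.

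Peroxidases act on hydrogen peroxide supplied by NADPH oxidases (RBOH) and, with laccases, join the monolignols of lignin. Of 8 RBOH genes tested, 3 rose and 2 fell. *RBOHD*, the oxidase of the defence burst, rose from 14.9, 15.1 and 17.0 FPKM to 33.6, 45.4 and 55.6 FPKM (log2 fold change 1.48), *RBOHF*, which also feeds the Casparian strip, by 1.40 and *RBOHB* by 1.12. *RHD2* (*RBOHC*), the oxidase of root hair tips, was at 4.89, 5.02 and 5.20 FPKM in Col-0 against 2.71, 4.48 and 3.07 FPKM in *fer-4* (-0.58), and its decrease and that of AT4G25090 (-0.56) were lost without any 1 Col-0 library. Of 18 genes of monolignol synthesis, 11 rose and only *PAL3* (-0.44) fell. Examples are *CCR2* (2.61), *PAL1* (1.54), *CAD5* (1.48) and *C4H* (1.02). Of 14 laccases tested, 7 fell and none rose, among them *LAC7* (-1.35), *LAC3* (-0.84), known from the Casparian strip, and *LAC4* (*IRX12*, -0.52), which acts in the xylem. *LAC4* and *LAC11* (-0.55) also stand among the xylem markers that fell, so those 2 counts share genes. The shares to read these against are the 18.0% of all genes that rose and the 16.0% that fell. Of 2 extensin genes, which encode wall proteins that peroxidases cross-link, AT3G54590 (*HRGP1*) fell (-1.34) and AT1G21310 (-0.11) did not pass.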

How the data were processed

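RNA-seq libraries were made from entire seedlings (Col-0 with 3 libraries, *fer-4* with 3) and grouped by genotype from the labels. The authors mapped the reads to TAIR10, and the deposited values are FPKM per gene, with STAR 2.5 and Cufflinks 2.2.1 named in the submitters' processing notes. The kit is directional, and how strand entered the counting was not stated in what was used here. The deposited fold changes, p-values and q-values of the authors were not used.

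For 19839 genes averaging 0.5 FPKM or more, log2(FPKM + 0.1) was modelled by limma 3.58.1 (R 4.3.3, trend on intensity, 2-sided). Adjustment was by Benjamini-Hochberg over all of them, and fold changes are on that scale, which understates low genes. Simulated data were used to test this step. With 3 against 3, a permutation cannot give p below 0.1, and limma goes lower by pooling the spread over genes. The series calls the replicates biological without naming separate cultures, so p-values measure the spread between these libraries.

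The members and gene lists were chosen with earlier results of these data known. Named members are all DEGs, all members of the role lists, the 8 most abundant in each genotype, the 3 with the largest change of rank, and their neighbours and near-identical relatives. Others are named after their values were seen. The alternatives were other pseudocounts, filters, scalings, no trend, a replicate block and each library left out. Of 26703 genes shared with the RefSeq annotation, 7465 had the same end, and of these 3883 started 1 base lower in the file and 22 at the same base, so starts were raised by 1. Sequences are from RefSeq's TAIR10.1 genome, with Biopython 1.88 for alignment, and Python 3.11.15, pandas 2.3.3, numpy 2.4.6 and matplotlib 3.10.9 did the rest.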

Additional observations from a re-analysis of the deposited data

How the results depend on the processing

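Over 15 alternatives, 20 of the 23 members that rose and 17 of the 22 that fell kept their call in every one. PRX5, PRX8, PRX65 and PRX68 were not tested at a mean of at least 2 FPKM, and PRX5 was not tested without *fer-4* replicate 1 or 3 either. Leaving out single libraries gave 21 to 22 that rose, 17 to 21 that fell, 13 to 18 higher and 5 to 13 lower DEGs, and the other alternatives gave 21 to 25, 20 to 24, 13 to 18 and 8 to 13. The lowest count of lower DEGs, 5, came without *fer-4* replicate 3. Quantile normalization moved the median of all genes to -0.08 and gave 22 that rose and 24 that fell, with 42.2% of all calls rising against 53.0%. PRX22 reversed to -0.13 and PRX47 to -0.051 under it. With single libraries left out, PRX22 ran from -0.080 (without *fer-4* replicate 1) to 0.099 and was -0.026 without Col-0 replicate 2, PRX47 ran from -0.13 to 0.18 and PRX4 from -0.0065 to 0.84, the lowest of both without *fer-4* replicate 3, and none of them was called. The summed level in Col-0 was 3549 under quantile normalization and 3490.0 as TPM, against 3419 FPKM. As a share of all FPKM, which is what TPM scales to, the sum was 0.349% in Col-0 and 0.416% in *fer-4*. The *fer-4* sum under quantile normalization is not given here. With the replicate number as a block, 22 rose and 21 fell, and PRX8 and PRX17 lost their calls. Same-numbered libraries did not deviate together (r = -0.04, 0.04 and -0.07 across genes), so no pairing by number showed across genes. A pairing that touches only some genes was not tested.

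For the other lists the same settings were applied after the data were seen. RBOH genes that rose stayed at 3, and those that fell were 1 as TPM, with no filter and with no trend, and 0 to 2 with single libraries left out, Col-0 libraries giving 0. Monolignol genes that rose were 9 to 12, laccases that fell 4 to 8, with 4 at a mean of at least 2 FPKM, and 7 with single libraries left out. Root hair markers that fell were 4 to 5 and endodermis markers 5 to 7. Where a call changed, the cause was not tested. Depth is unknown, so changes under about 1 FPKM cannot be judged against counting error.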

Other observations

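Of the 12 members that were not tested, PRX28 was at 0.119, 0 and 0.0825 FPKM in Col-0 against 0.746, 0.846 and 0.448 FPKM in *fer-4*. PRX18 was at 0.631, 0.587 and 0.604 FPKM and at 0.333, 0.0556 and 0 FPKM. The genotypes did not overlap in either gene, and with no filter on low values both passed, as did PRX58 and PRX2 (limma). Among the 3 genes described as probable or putative peroxidases, PRX26 was at 1.79, 2.38 and 1.95 FPKM in Col-0 against 1.43, 1.31 and 1.06 FPKM in *fer-4*, PRX61 at 1.92, 1.58 and 2.01 FPKM and at 3.66, 2.201 and 2.53 FPKM, and PRX48 under 0.2 FPKM in every library.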
